A study of Mus musculus with 2 samples.

Results

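CTCF peaks at bidirectional protein-coding promoters were taken from the optimal peak list of embryonic mouse liver. They were the peaks whose summit lay within 1 kb of both starts of a divergent gene pair. Such a pair is a minus-strand and a plus-strand transcript start of different protein-coding genes, with the minus-strand start on the left and at most 1000 bp between them. By this rule 697 of 50909 optimal peaks were members, or 1.37% (Wilson 95% interval 1.27 to 1.47). The members fell on 584 gene pairs as assigned, with 69 on chromosome 2, 10 on X and 16 on chromosome 18, which are counted here but not named.

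Chromatin immunoprecipitation with sequencing against CTCF was made on livers of B6NCrl embryos at 14.5 days, with no other treatment or genotype given. The tissue was pulverised, and several dissections and both sexes were combined in it. The 2 libraries form 1 group and share a biosample and a donor entry, so their spread may be technical, and with 2 libraries an exact 2-sided sign-flip permutation test could not go below p = 0.5. No test over samples was therefore made, intervals over peaks, pairs or genes cover counting error only, read depth is unknown, and the cell types of the liver cannot be checked from CTCF peaks alone.

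CTCF is a zinc finger protein that binds a long, non-palindromic DNA motif and, with cohesin, holds the anchors of chromatin loops and insulators. Bidirectional promoters drive a pair of genes in opposite directions from a short shared stretch of DNA. They are known to be rich in CpG islands and common among DNA repair and other housekeeping genes. Ets, Nrf1, NF-Y, Sp and Yy1 factors are known to bind many of them.

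The DNA at the named members of highest signal ran from a full match of the core CTCF motif, 14 bases long, to a closest match with 3 mismatches. The sequences are from the RefSeq GRCm38 genome (build mm10), run 5′ to 3′ on the strand of the match, and carry 8 bases on each side of the motif. Capitals mark the motif. Of the 12 named members of highest signal, which leave out 1 unnamed member of rank 9, 8 had a motif with at most 2 mismatches, and the first set is from these.
Dtl-Ints7, chr1:191575984-191576013, minus strand: agctgccgCCACTAGGTGGCGCcactcccc
Wrap53-Trp53, chr11:69579482-69579511, plus strand: ctccctggCCTGCAGAGGGCGCataatttc
Trim46-Krtcap2, chr3:89246359-89246388, plus strand: cctccttgCCACAAGAGGGCGCtgcaccca
Nfkbil1-Atp6v1g2, chr17:35236521-35236550, minus strand: cgaaacggCCGCCCGAGGGCAGcagagacc
Exd1-Chp1, chr2:119547120-119547149, minus strand: tccccccgGCCGCAGGGGGCGCtgagagcc
Ruvbl2-Gys1, chr7:45434805-45434834, minus strand: cctcgtggCCGCCAGGAGGCACtgcccacc
Ddias-Prcp, chr7:92874513-92874542, plus strand: cgggctggACAGGAGGGGGCGCtgttgtag
The match at Dtl-Ints7 had no mismatch, those at Wrap53-Trp53 and Trim46-Krtcap2 had 1, and the other 4 printed had 2.

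The remaining 4 of these 12 missed the limit by a single base, with 3 mismatches each, and their closest match is in capitals.
Rab2b-Tox4, chr14:52279459-52279488, plus strand: cccaccaaGCTCCAGGGGGCGAcagcgacc
Gemin4-Dbil5, chr11:76217698-76217727, minus strand: agcctaggCCGAGAGGGGGCGCtgtggcta
Mrps12-Sars2, chr7:28742235-28742264, plus strand: ctggagctCCGCAAGGGGGAGCtgcggccg
Cdiptos-Cdipt, chr7:126976005-126976034, plus strand: tcctcccaCCACCAGGGCGGCGctagaagc
The other members of highest signal with no mismatch were Nae1-Car7 and Ush1g-Otop2.
Nae1-Car7, chr8:104534653-104534682, plus strand: gcgcgcagCCAGTAGGGGGCGCcgacgctg
Ush1g-Otop2, chr11:115322477-115322506, plus strand: acagttctCCAGCAGGGGGCGCtagacgac

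Whole stretches between opposing starts show where the motif sits in a shared promoter. Those printed here hold no annotated exon, were singled out after their values were seen, and are on the plus strand with the core motif in capitals. In Nop14-Grk4 the match is on the minus strand, so the capitals read as its reverse complement.
Trove2-Uchl5, chr1:143777069-143777271: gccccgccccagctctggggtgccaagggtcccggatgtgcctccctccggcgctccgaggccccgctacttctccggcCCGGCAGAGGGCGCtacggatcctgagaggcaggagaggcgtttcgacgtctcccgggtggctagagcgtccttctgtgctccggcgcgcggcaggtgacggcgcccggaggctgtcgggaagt
Vezt-Fgd6, chr10:94035818-94036000: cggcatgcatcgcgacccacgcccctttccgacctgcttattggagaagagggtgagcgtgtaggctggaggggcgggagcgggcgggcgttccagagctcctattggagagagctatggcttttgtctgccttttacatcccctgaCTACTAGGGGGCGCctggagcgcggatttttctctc
Nop14-Grk4, chr5:34660149-34660378: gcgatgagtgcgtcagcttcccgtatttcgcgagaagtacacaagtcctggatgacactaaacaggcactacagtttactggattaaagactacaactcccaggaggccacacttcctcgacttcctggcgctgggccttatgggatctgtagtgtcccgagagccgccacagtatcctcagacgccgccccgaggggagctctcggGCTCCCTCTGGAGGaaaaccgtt
The summit lay 100 bp from the nearest start at Trove2-Uchl5, where the signal was 406, and 41 bp from it at Vezt-Fgd6, where the signal was 250. At Nop14-Grk4 it lay 24 bp from a start, with a signal of 471. The next stretches belong to members with 4 or more mismatches to the core motif at the summit, and their capitals mark letters of other promoter motifs.
Acin1-1700123O20Rik, chr14:54686061-54686215: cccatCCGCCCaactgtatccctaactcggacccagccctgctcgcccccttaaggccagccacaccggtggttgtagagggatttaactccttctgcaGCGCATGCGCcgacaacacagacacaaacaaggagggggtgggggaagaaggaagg
BC055324-Mettl18, chr1:163994797-163994888: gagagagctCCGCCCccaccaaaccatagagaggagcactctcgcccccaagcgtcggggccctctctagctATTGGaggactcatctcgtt
In Acin1-1700123O20Rik the capitals are the Sp letters on the minus strand and the Nrf1 letters on both strands, and its signal was 139. In BC055324-Mettl18 they are the Sp and NF-Y letters, both on the minus strand, and the stronger of its peaks had a signal of 119.

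The strongest member stood in an intron of Wrap53, which encodes a telomerase and Cajal body protein, beside Trp53, the gene of the tumour suppressor p53. The peak lay at chr11:69579223-69579643, 134 bp from the nearest annotated start, with a signal of 643, which ranked it at 26 in the optimal list. That start was not one of the pair's assigned starts, which were at 69580255 and 69580359, while the summit was at 69579458. The summit was thus on the Wrap53 side, 900 to 1000 bp from the farther assigned start and just inside the 1 kb limit. Signal is the authors' value for a peak, and the sources do not give its scale. Relative signal divides a replicate's own peak value by the median of that replicate's 50909 strongest peaks, and it was 11.5 in replicate 1 and 8.06 in replicate 2 at this peak. Rab2b-Tox4, with a small GTPase and an HMG-box protein, followed at chr14:52279285-52279661, in UTR sequence of both genes. Its signal was 640 and its relative signal was 10.8 in replicate 1 and 8.46 in replicate 2. Both peaks were among the 50 strongest of each replicate.

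Further members of high signal paired genes of unlike functions. Nfkbil1-Atp6v1g2, with a subunit of the vacuolar proton pump, had a relative signal of 8.67 ± 1.76 (SD, n = 2). Dtl-Ints7, with a ubiquitin ligase adaptor of the replication cycle and an Integrator subunit, had 8.06 ± 1.76 (SD, n = 2). Cdiptos-Cdipt, with phosphatidylinositol synthase, had 8.29 ± 2.05 (SD, n = 2), and the summit lay 14 bp from a start. Ruvbl2-Gys1, with an AAA+ chromatin helicase and muscle glycogen synthase, had 7.75 ± 1.31 (SD, n = 2). Over the 12 members of highest signal outside chromosome 18, relative signal ran from 7.92 to 11.5 in replicate 1 and from 6.11 to 8.46 in replicate 2, and all 12 were also in the conservative list. Of these 12 summits, 5 lay between the assigned starts, 5 lay in UTR sequence, 5 in introns, 1 in a noncoding transcript's exon of Prcp and 1 in a coding exon of Sars2. Of all members, 16 were among the 1000 strongest optimal peaks, which is 2.30% of members, close to the 1.964% that 1000 peaks are of the whole list.

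Most members were weak peaks. Their signal ran from 5.34 to 643 with a median of 41.3 and quartiles of 23.5 and 100.1, and 240 of 697 (34.4%) were above the median of the optimal list, 67.9. The median was 56.3 at one-directional promoters, that is at the 8749 other peaks within 1 kb of a protein-coding start. It was 71.6 at the 1770 peaks with noncoding starts only and 70.6 at the 39672 peaks away from starts. The one-directional class is a remainder, so it also holds peaks at overlapping divergent pairs. With those pairs allowed, members numbered 775 and one-directional promoter peaks 8671. The median of members was 0.734 times that of one-directional promoter peaks (95% interval over peaks 0.668 to 0.790). In each replicate's own 50909 strongest peaks it was 0.792 times in replicate 1 and 0.720 times in replicate 2, or 0.756 ± 0.0510 (SD, n = 2). Just inside the 1 kb limit, at 900 to 1000 bp from the farther start, 40 members had a median signal of 46.3, and just outside, at 1000 to 1100 bp, 18 peaks had 58.6. The 3 members with starts 900 to 1000 bp apart ran from 21.3 to 303.1, and the 6 peaks at pairs 1000 to 1100 bp apart ran from 11.8 to 502.4.

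A core CTCF motif was found at a smaller share of members than of peaks in the other 3 classes. With at most 2 mismatches within 50 bp of the summit, 189 of 697 members had a match, or 27.1% (Wilson 95% interval 23.9 to 30.5). The share was 47.6% at one-directional promoter peaks, 69.4% at noncoding starts and 76.7% away from starts. Members minus one-directional promoter peaks came to -20.5 points (Newcombe 95% interval -23.9 to -16.9). In replicate 1's strongest peaks the shares were 23.4% of members and 41.4% of one-directional promoter peaks, and in replicate 2's they were 31.0% and 53.0%. The difference was -20.0 ± 2.84 points (SD, n = 2), larger than the spread between the replicates, which share 1 biosample. Close matches were rarer still, with at most 1 mismatch at 7.17% of members and 21.4% of one-directional promoter peaks, and with no mismatch at 5 members (0.717%) and 4.78%.

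GC content differed between the classes as well, and the motif shares are therefore given within classes of GC. Within 100 bp of the summit, GC content had a median of 62.7% at members and 59.7% at one-directional promoter peaks, 2.99 points apart (95% interval 2.49 to 4.10). The ratio of observed to expected CpG was 0.775 at members and 0.576 at one-directional promoter peaks, against 0.199 away from starts. In 5 classes of GC content, from under 50% to 65% or more, members had the motif in 41.3%, 31.4%, 25.5%, 20.7% and 28.9% of cases. One-directional promoter peaks had it in 68.4%, 55.2%, 47.4%, 39.4% and 36.95%. Members were lower in every class, and also in every class of each replicate's own peaks. In the class of 65% or more the difference was the smallest, at 26.3% against 32.3% in replicate 1 and 32.7% against 41.0% in replicate 2.

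**Figure D1:**
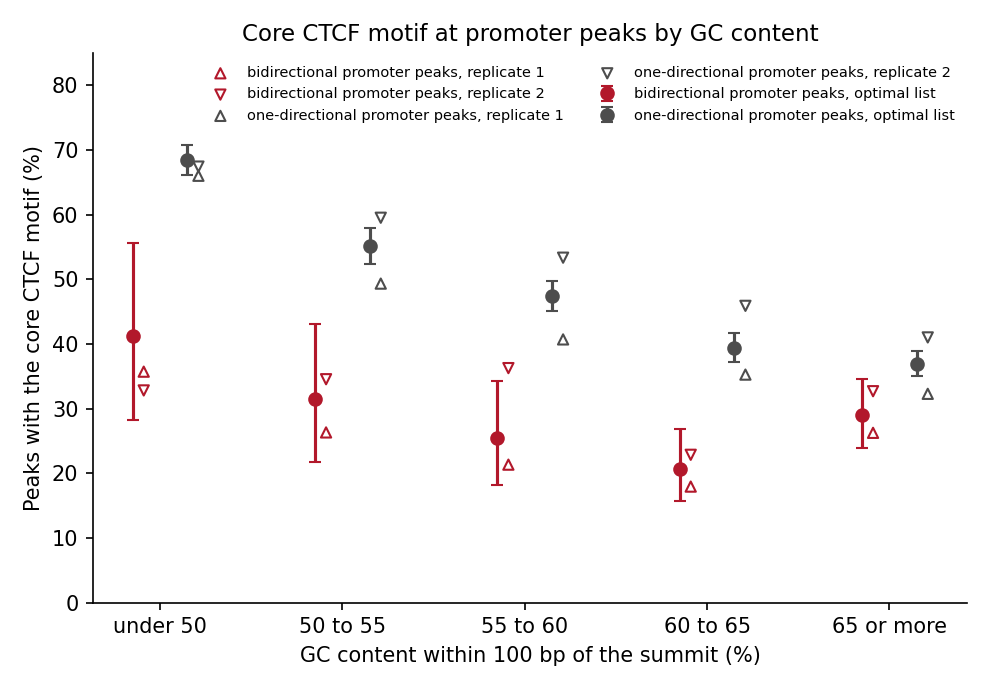
Share of promoter peaks with the core CTCF motif (y axis, percent) in classes of GC content within 100 bp of the summit (x axis, percent). Filled points are the optimal list with Wilson 95% intervals and open triangles are each replicate's own strongest peaks; bidirectional promoter peaks, in red, lie below one-directional ones, in grey, in all 5 classes.

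Signal followed the motif match in both promoter classes. Members with no mismatch had a median signal of 394 (n = 5), those with 1 mismatch 193 (n = 45), those with 2 mismatches 72.4 (n = 139), those with 3 mismatches 42.8 (n = 248) and those with 4 or more 27.8 (n = 260). One-directional promoter peaks gave 271, 158, 72.7, 44.1 and 27.4 in the same order, so at a given match the medians were close wherever the members numbered over 100. With the motif, the median was 105 at members and 112 at one-directional promoter peaks, and without it 33.6 and 34.7. Read the other way, members had the motif less often at like signal, in 11.4% against 21.4% of peaks in the weakest of 5 equal classes of the optimal list and in 67.0% against 79.3% in the strongest.

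Pairs of genes are a second way to count. Of 1232 bidirectional pairs in the annotation, with 2410 genes, 604 held at least 1 member, which is 49% of pairs (Wilson 95% interval 46.2 to 51.8). Replicate 1 alone gave 59.6% and replicate 2 alone 40.4%, or 50 ± 13.5% (SD, n = 2), so the share is known only to within that spread. A single peak was held by 497 pairs, 94 held 2, 12 held 3 and 1 held 4. That pair was Fam53a-Gm9903, and its 4 peaks were weak, with signals of 36.0, 30.9, 19.3 and 11.7. Of these 4, only the first and the second were matched in both replicates.

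The distance between the starts had little bearing on the share below 500 bp. It was 50.4% at 0 to 100 bp, 50.5% at 100 to 200 bp, 50% at 200 to 300 bp and 52.8% at 300 to 500 bp. In pairs 500 to 1000 bp apart it was 31.7% (Wilson 95% interval 23.4 to 41.3). A summit had to be within 1 kb of both starts, so the stretch in which it could count shrinks as the starts move apart. How far this rule lowers the share in the widest pairs was not tested. The share was higher in pairs of higher GC content within 250 bp of the midpoint, at 25.6% under 50%, 38.9% at 50 to 55%, 48.9% at 55 to 60%, 53.3% at 60 to 65% and 54.4% from 65%. Pairs with and without a peak had median distances of 103 and 109 bp, and the core motif lay within 50 bp of the midpoint in 7.78% and 4.94% of them.

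Counted by gene, a promoter peak was more frequent among genes of bidirectional pairs than among other protein-coding genes. Over all 21938 genes 35.2% had a summit within 1 kb of a start. The share was 58.0% of bidirectional genes (1397 of 2410) and 32.4% of the others (6330 of 19528), 25.6 points apart (Newcombe 95% interval 23.5 to 27.6). Partners of a pair can share 1 summit but were counted as separate genes, so the intervals over genes may be too narrow. Replicate 1 gave 67.0% and 36.0%, and replicate 2 gave 50.5% and 29.4%, so the difference was 26.0 ± 7.04 points (SD, n = 2). Bidirectional genes also had more GC at their starts, with medians of 59.2% and 53.9%, and more annotated starts, with medians of 5 and 3, each of which is another place for a summit to count. With 1 start per gene, which also leaves fewer pairs, the difference was 24.5 points (21.9 to 27.1). Within 6 classes of GC content the difference was 33.4 points under 45%, 27.7 at 45 to 50%, 22.4 at 50 to 55%, 10.9 at 55 to 60%, 12.2 at 60 to 65% and 11.4 from 65%. It was above 0 in every class of both replicates, and smallest at 7.55 points, in replicate 2 at 55 to 60%.

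**Figure D2:**
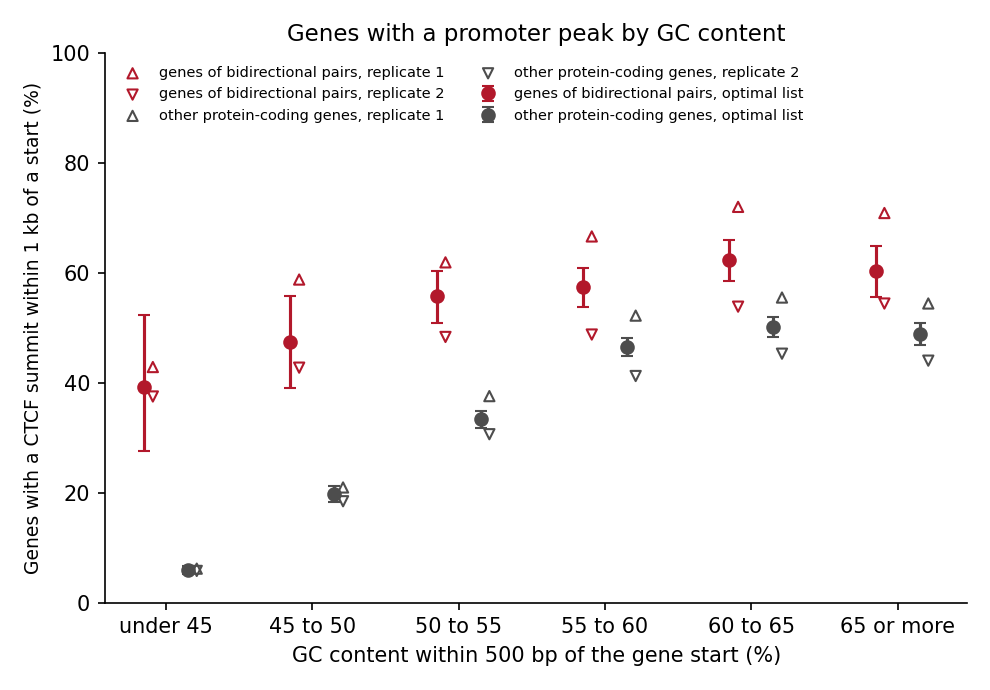
Share of genes with a CTCF summit within 1 kb of any start (y axis, percent) by GC content within 500 bp of the gene start (x axis, percent). Genes of bidirectional pairs are red and other protein-coding genes grey; filled points with Wilson 95% intervals are the optimal list and open triangles the replicates, and the gap is 33.4 points in the lowest class and 11.4 in the highest.

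Summits of members lay close to starts. The median distance to the nearest protein-coding start was 72 bp for members and 224 bp for one-directional promoter peaks, and 58.0% and 30.7% lay within 100 bp. Members had to be within reach of 2 starts and their genes had more annotated starts, so these distances are partly set by the rule and are a description only. Where several start combinations were in reach, a member was assigned the one whose midpoint was nearest, which by construction draws summits towards the midpoint. On that assignment 297 of 697 summits, or 42.6% (Wilson 95% interval 39.0 to 46.3), lay between the starts, 27.8% on the side of the minus-strand gene and 29.6% on the side of the plus-strand gene. With 1 start per gene the share between the starts was 16.5%, so the figure depends on the transcripts counted. The share was like in members with and without the motif, at 43.4% and 42.3%. By annotation, 41.5% of member summits were in UTR sequence, 28.1% in introns, 13.6% in coding exons, 7.17% in exons of noncoding transcripts and 9.61% outside every transcript. At one-directional promoter peaks these shares were 16.1%, 37.3%, 10.7%, 9.73% and 26.3%.

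**Figure D3:**
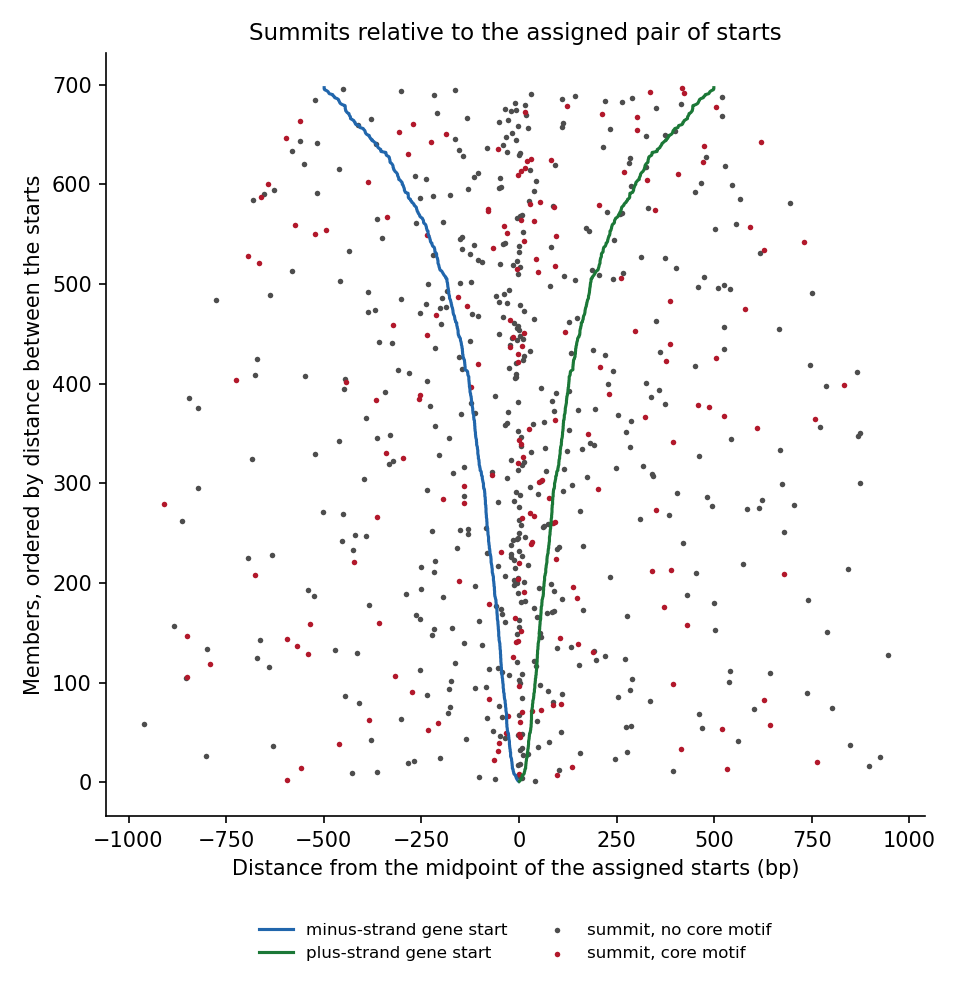
Summits of the 697 members (points, red with and grey without the core motif) relative to the midpoint of the assigned starts (x axis, bp), ordered on the y axis by the distance between those starts, which the blue and green lines mark. Of the summits 42.6% lie between the lines, with 27.8% to the left and 29.6% to the right; the dense strip near 0 follows in part from the assignment to the nearest midpoint.

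The motif pointed to either gene of a pair at shares that the counts cannot tell apart. Among the 189 members with the motif, 102 pointed to the plus-strand gene, or 54.0% (Wilson 95% interval 46.9 to 60.9). With the summit between the starts it was 41 of 82. With the summit on the side of the minus-strand gene, 19 of 52 motifs pointed away from the other gene, or 36.5% (24.8 to 50.1). On the side of the plus-strand gene 28 of 55 did, or 50.9% (38.1 to 63.6). The next motif peak in the direction pointed to, 20 kb to 1 Mb away, pointed back in 48.7% of 187 members (41.6 to 55.8) and 53.5% of 4152 one-directional promoter peaks (51.97 to 55.01). The intervals overlap, and no test of the difference was made.

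Letters of other promoter factors were counted on both strands within 100 bp of summits. The Ets letters CCGGAAG were found at 15.4% of members (Wilson 95% interval 12.9 to 18.2) and 6.55% of one-directional promoter peaks, against 9.60% of all protein-coding starts. The Sp letters GGGCGG were at 40.2% and 32.8%, against 40.0% of starts, and they can overlap the CTCF core. The NF-Y letters CCAAT were at 20.9% and 18.8%, against 28.2% of starts. The Nrf1 letters GCGCATGCG were at 2.30% and 1.25%, against 1.78% of starts. The Yy1 letters AAGATGG, which can overlap the CTCF core, were at 5.31% and 4.21%, against 4.91% of starts. The Zfp143 letters ACTACAA were at 2.01% and 1.74%, against 2.29% of starts. The TATA letters TATAAA were at 2.58% and 3.71%, against 8.08% of starts. Members without the CTCF motif had the Ets letters in 16.7% of cases and one-directional promoter peaks without it in 8.10%. At the midpoints of pairs, which do not depend on a summit, the Ets letters were present in 26.5% of pairs with a peak (23.1 to 30.1) and 19.7% of pairs without (16.8 to 23.0), and the CCAAT letters in 33.3% and 33.8%. A match of letters is a description and does not show that a factor is bound, and members are nearer to starts and richer in GC than one-directional promoter peaks.

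Replicate 1 gave members a higher relative signal than replicate 2. Members matched in both replicates numbered 591, and their log2 ratio of replicate 1 over replicate 2 had a median of 0.73 (quartiles 0.36 and 1.25), with 511 of 591 (86.5%) above 0. The share above 0 was 84.4% at one-directional promoter peaks and 63.6% over all optimal peaks. At one-directional promoter peaks the median was 0.62, at noncoding starts 0.35 and away from starts 0.19. Members minus one-directional promoter peaks came to 0.11 on the log2 scale (95% interval over peaks 0.05 to 0.18). With 1 start per gene it was 0.08 with an interval that includes 0 (-0.01 to 0.16). The ratio moved with GC content in all classes of peaks. Members had medians of -0.40, 0.48, 0.75, 0.84 and 0.83 in the 5 classes of GC, and one-directional promoter peaks had -0.14, 0.50, 0.70, 0.80 and 0.78. With GC content of 60% or more in both, the difference was 0.04 (-0.03 to 0.10). The part of GC content in the difference between the libraries was not tested.

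**Figure D4:**
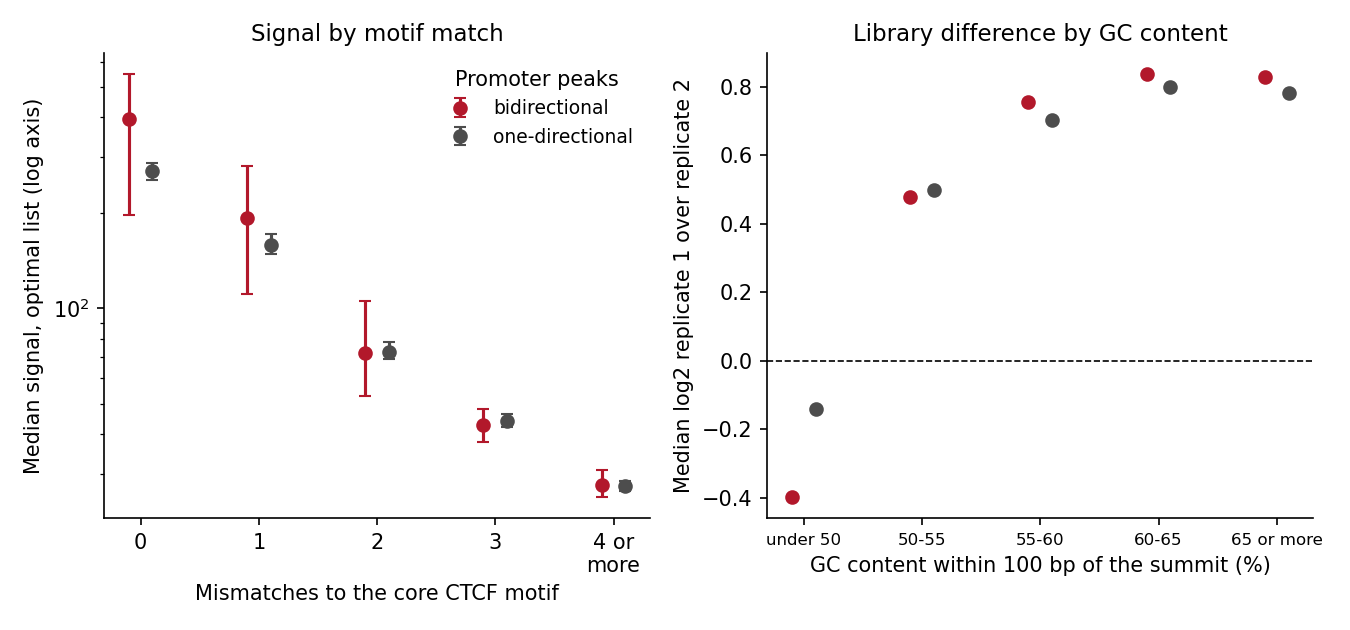
Left, median signal in the optimal list (log y axis, 95% intervals of the median) by mismatches to the core CTCF motif, for bidirectional (red) and one-directional (grey) promoter peaks, which run from 394 and 271 with no mismatch down to 27.8 and 27.4 with 4 or more. Right, median log2 of replicate 1 over replicate 2 by GC content, below 0 under 50% GC and between 0.48 and 0.84 above it in both classes.

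The libraries also differed in which members they held. Among each replicate's 50909 strongest peaks, 435 members had a peak in both, 147 in replicate 1 only, 45 in replicate 2 only and 70 in neither. A peak counted only with its summit within 100 bp of the member's, so a shifted summit counts as missing. By pair, any summit within the 1 kb limit counted. Of the 604 pairs with a member, 443 then had such a peak in both, 113 in replicate 1 only and 15 in replicate 2 only. One-directional promoter peaks also leaned to replicate 1, with 1388 in replicate 1 only and 461 in replicate 2 only, while over all optimal peaks 4119 were in replicate 1 only and 5355 in replicate 2 only. The conservative list held 541 members, or 77.6% (Wilson 95% interval 74.4 to 80.6), and 83.5% of one-directional promoter peaks. The widest ratios belonged to weak peaks outside the conservative list. Nvl-Cnih4, with a ribosome assembly ATPase, had a relative signal of 0.878 in replicate 1 and 0.105 in replicate 2, a log2 ratio of 3.06. Exoc8-Sprtn, with an exocyst subunit and a protease that repairs DNA-protein crosslinks, had 0.812 and 0.102, a log2 ratio of 2.99, and Mrpl50-Zfp189 had 0.566 and 0.0833, a log2 ratio of 2.76. At the other end stood Hist1h2ak-Hist1h2bn at -1.78, with a relative signal of 0.111 in replicate 1 and 0.382 in replicate 2, and a weaker peak of S100pbp-Yars at -1.61. These ratios rest on summits matched within 100 bp, and a stronger peak can lie farther off. At Hist1h2ak-Hist1h2bn the matched peak of replicate 1 ranked 257116, but its best peak within the pair's 1 kb limit ranked 30156. At Mrpl50-Zfp189 the matched peak of replicate 2 ranked 272747 and its best peak within the limit 40044.

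**Figure D5:**
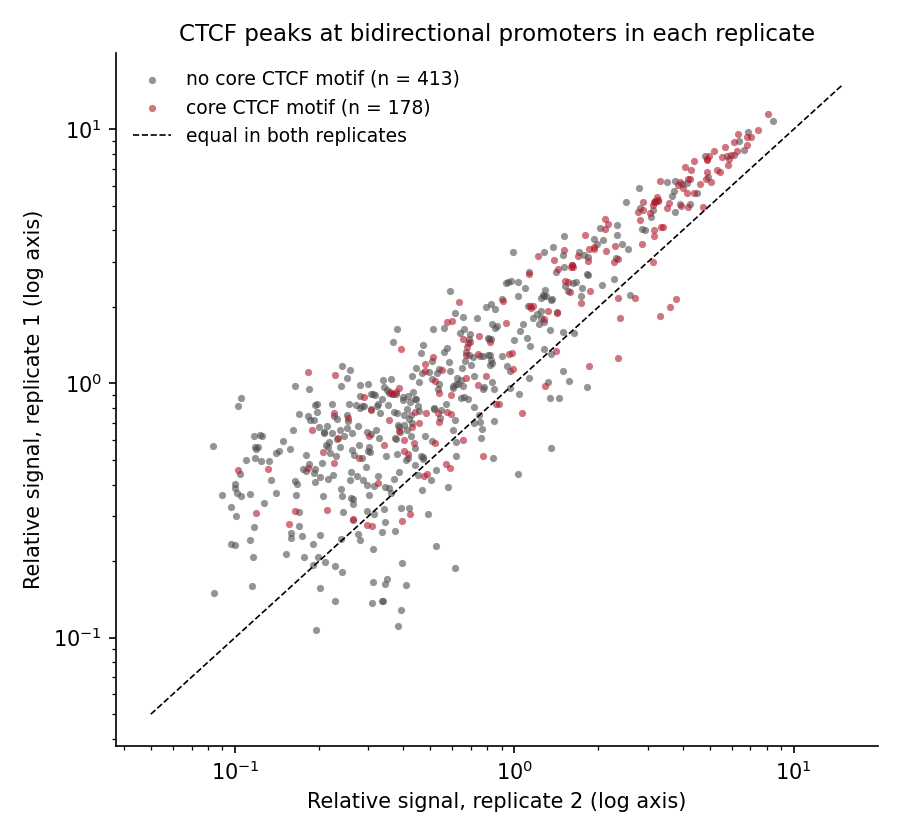
Relative signal of the 591 members matched in both replicates, replicate 1 (y axis) against replicate 2 (x axis), both log axes, with the core motif in red and without in grey. Points above the dashed line of equal signal, 511 of 591, were higher in replicate 1.

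Gene groups are described by how many of their genes in bidirectional pairs had a member, beside 49.1% of all 2410 such genes. No test was made of a list. DNA repair genes were often in such pairs, 32 of 78 listed or 41.0%, against 10.99% of all protein-coding genes, and 14 of the 32 had a member. Tkfc-Ddb1, with a subunit of the ultraviolet damage sensor, had a relative signal of 5.05 in replicate 1 and 3.14 in replicate 2. Hscb-Chek2, with a checkpoint kinase, had 1.84 in replicate 1 and 3.31 in replicate 2. It leaned the other way from the list, whose median relative signal where matched was 1.70 in replicate 1 and 0.870 in replicate 2. Of the 14, 3 had the motif.

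Replication and cell cycle genes had a member in 8 of 17 cases. Among them Orc3-Rars2, with an origin recognition subunit, had 2.11 in replicate 1 and 0.908 in replicate 2. Subunits of RNA polymerases and of Mediator, the coactivator that contacts RNA polymerase II, had one in 13 of 17 (76.5%, Wilson 95% interval 52.7 to 90.4). Polr3a-Rps24, which joins the largest subunit of RNA polymerase III to a small-subunit ribosomal protein, had 6.36 and 4.86. Bysl-Med20 had 5.61 and 4.52, and the motif was within the limit at 3 of the 13.

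Genes of protein synthesis were counted in 3 lists, whose intervals overlap. Aminoacyl-tRNA synthetases, which load amino acids on tRNAs, had a member in 9 of 10 cases (Wilson 95% interval 59.6 to 98.2). These 9 genes rest on 8 pairs with a member, as 1 pair joined 2 listed genes, and the interval counts the genes as separate. Mrps12-Sars2 led them with 7.92 in replicate 1 and 6.11 in replicate 2, and Wars-Wdr25 was the pair without a member. The list is short, and some of its pairs rest on weak peaks, such as Kars-Terf2ip with a signal of 12.3. Cytosolic ribosomal proteins had a member in 9 of 15 cases (35.7 to 80.2), with Rpl35-Arpc5l at 1.17 and 1.86 the next after Polr3a-Rps24. Mitochondrial ribosomal proteins had one in 15 of 29 (34.4 to 68.6), at a median signal of 29.5, with Mrps18b-Ppp1r10 at 4.04 and 2.12 the next after Mrps12-Sars2.

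Genes of the respiratory chain and ATP synthase had a member in 15 of 31 cases. Cox15-Cutc, with a heme A synthase for cytochrome oxidase, had 6.76 in replicate 1 and 4.89 in replicate 2, and Cbarp-Atp5d, with a subunit of ATP synthase, had 5.29 and 3.27. Proteasome subunits had one in 3 of 11, at Ftsj3-Psmc5, Psma7-Ss18l1 and Psmb9-Tap1, none of them with the motif. Ftsj3-Psmc5 had 2.47 and 0.934.

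Replication-dependent histone genes, for which 13 of 14 pairs joined genes of this kind, had a member in 9 of 27 cases. These 9 genes rest on 5 pairs with a member, as 4 of those pairs counted for 2 genes each. Bola1-Hist2h2ab had 1.02 in replicate 1 and 1.57 in replicate 2, and the others had signals of 37.3 or lower. These genes are near-identical copies, so where reads were placed among them is uncertain. Zinc finger genes had a member in 9 of 30, led by Zfp319-Usb1 at 2.30 and 0.588 and Zfp597-Naa60 at 1.45 and 0.820.

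Genes of the liver's own cell types are given beside the 10.99% of all protein-coding genes that were in bidirectional pairs. Of 20 heme synthesis and iron transport genes 3 were (15%), in Urod-Hectd3, Uros-Bccip and Slc11a2-Gm5475, and none of these pairs had a member. Of 26 erythroid genes only Sox6 was (3.85%), without a member, and of 23 hepatocyte genes only Foxa3 (4.35%), a liver transcription factor, whose peak beside Sympk had 1.40 in replicate 1 and 0.676 in replicate 2. Of 3 cohesin and CTCF partner genes in pairs, Smc1a and Cdca5 had weak members with signals of 28.9 and 23.7, and Mau2 had none.

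Well-known bidirectional pairs were listed as well, and 8 of 15 had a member, 53.3%, near the 49% of all bidirectional pairs. Wrap53-Trp53 was the strongest. Atm-Npat, with the kinase that signals DNA breaks, reached a signal of 93.7, and its relative signal was 1.71 in replicate 1 and 1.08 in replicate 2. Brca1-Nbr1, with a homologous recombination protein, reached 83.3, with relative signals of 1.68 in replicate 1 and 0.870 in replicate 2. The matched summit of replicate 2, of rank 27678, lay beyond the 1 kb limit of this pair. Within the limit the best peak of replicate 2 ranked 270885. Hspd1-Hspe1, the mitochondrial chaperonin pair, had its stronger peak at a signal of 24.7. Ppat-Paics of purine synthesis had a signal of 22.9, and Psmb9-Tap1 of antigen presentation had 15.9. At the strongest peak of these 8 pairs, the core motif was within the limit at Wrap53-Trp53 alone. The pairs without a member were Surf1-Surf2, Col4a1-Col4a2, Mcm4-Prkdc, Gart-Son, Tk1-Afmid, Sirt3-Psmd13 and Urod-Hectd3. At Mcm4-Prkdc the conservative list did hold a peak.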

How the data were processed

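Peak lists of mouse build mm10 were used as deposited. Per the labels and the deposited text files, the authors called peaks for each replicate and for both pooled, against a control, and made optimal and conservative lists by the irreproducible discovery rate. No source used here names the caller. Each peak's signal, as deposited, lacks a stated scale and was compared within a list only. Starts came from all transcripts of GENCODE release 21 for mouse, and sequence from the RefSeq genome of the same build, whose chromosome lengths hold every peak. The 21 optimal peaks on unplaced scaffolds were left out, which left 50888.

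Members, gene lists, motifs and alternatives were chosen with earlier results of these data known. Chromosome 18 was passed over in naming. Text names, from the other chromosomes, the 12 members of highest signal, 2 pairs or more per gene list, the 3 highest and 3 lowest log2 ratios between replicates, the pair with the most members, the 3 strongest without a mismatch, and listed well-known pairs. Of the members this rule takes, 4 are counted but not reported here by name. Relative signal uses a replicate's strongest peak with its summit within 100 bp. Replicate values come from each replicate's 50909 strongest peaks of 300000, because the lists differ in threshold. Intervals are Wilson for shares, Newcombe for differences of shares and order statistics for medians. The motif search was tested on simulated sequence. Python 3.11.15, numpy 2.4.6, pandas 2.3.3, scipy 1.17.1, pysam 0.24.0 and matplotlib 3.10.9 were used. Alternatives changed the start set, the distances, the mismatches, the list, the signal cut-off and the replicate.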

Additional observations from a re-analysis of the deposited data

Results flagged for a closer look

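Of the 628 bidirectional pairs without an optimal peak, 73 held a peak of the conservative list. Apart from the one at Mcm4-Prkdc, these conservative peaks are not described above. The number is listed because it exceeds the 3 that a count of 0 allows, and it says only that such peaks are present. The conservative list held 682 peaks at bidirectional promoters, of which 141 had no optimal peak within 100 bp. Their median signal was 17.4, against 56.8 for those with one.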

How the results depend on the processing

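Among the 86 values computed under alternatives, no difference or ratio changed direction. Plain shares, such as the member share, cannot change direction. Of all 86 values, 23 moved by more than 1 SD between the replicates (for the library difference, by more than its interval). The values that leave out 1 replicate are among the 86 and themselves set that SD, so their labels are partly fixed in advance. That SD is wide for the counts of peaks and pairs, so values within it can still lie outside the counting interval: summits within 500 bp gave 36.8% of pairs with a peak and a member share of 0.949%, and peaks above the median signal a member share of 0.943%. The member share was 1.22% with protein-coding transcripts and 1.52% with overlapping pairs. Leaving out 1 replicate gave 1.10 to 1.71% for it and 40.4 to 59.6% for pairs with a peak. With 1 start per gene, the member share was 0.835%, the motif difference -15.1 points, the GC difference 1.49 points and the share of summits between the starts 16.5%. With optimal peaks above the median signal, pairs with a peak came to 19.3%, the gene difference to 8.91 points, the signal ratio to 0.820, the GC difference to 4.48 points and the share between the starts to 45%; fewer peaks were counted there. The motif difference was -14.2 points with at most 1 mismatch and with at most 3, -16.3 with starts of protein-coding transcripts only and -17.5 with summits within 500 bp. Summits within 500 bp also gave a signal ratio of 0.802 and a share between the starts of 52.6%. That share was 34.9% with starts at most 500 bp apart, 35.7% with protein-coding transcripts and 44.9% with overlapping pairs. Leaving out 1 replicate gave 40.7 to 42.8% for it, 0.720 to 0.792 for the signal ratio and 2.99 to 4.48 points for GC. The basic transcript set, added after the data were seen, gave a motif difference of -14.8 points and 29.7% between the starts. The limit to 60% GC or more was also added then. The cause of these shifts was not tested. No paired analysis was possible because there is only 1 group.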

Other observations

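The 697 members were spread over chromosomes unevenly, from 10 on X to 69 on chromosome 2, and this was not set against the number of pairs on each. The nearest other optimal peak lay at a median of 3600 bp from members and 4237 bp from one-directional promoter peaks. In pairs with a single start combination 41.2% held a member, and in pairs with more than 20 combinations 55.7%. These values were not tested.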
